A study of Mus musculus with 98 samples.

Results

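A group of 8 genes linked to the nerve supply of skeletal muscle were examined in mice with humanized livers: Ngfr, Chrna1, Chrng, Myog, Myod1, Ncam1, Runx1 and Gadd45a. The set of 8 was chosen by symbol among the mouse genes of the muscle count table, starting from Ngfr because its level was higher in muscle of mice with human hepatocytes. All 8 passed the filter on low counts, among 14197 genes tested. The muscle difference of Ngfr selected the set, so its values are a description with no test. The other 7 were picked as genes known to respond to denervation, and the question was whether they followed Ngfr.

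FRGN mice (Fah-/-, Rag2-/-, Il2rg-/-) are on a NOD background, and all animals, controls included, lack the tyrosine-breakdown enzyme of hepatocytes and have no mature lymphocytes. Their livers were repopulated with human (Hu) or murine (Mu, the control) hepatocytes injected into the spleen, in 10-week-old males. Animals received nitisinone (NTBC), which protects Fah-deficient hepatocytes, antibiotics (SMX/TMP) and dextrose, and Hu mice were selected for over 70% repopulation. The host's own liver cells are therefore still present in Hu livers, and muscle is of the mouse host in both arms. Skeletal muscle was sampled at 6 times, zeitgeber time (ZT, hours on the light schedule) 2, 6, 10, 14, 18 and 22, in 15 Hu and 12 Mu libraries of the 98 in the series. Each time had 2 or 3 Hu and 2 Mu libraries. The labels do not name the muscle. They also do not state that libraries came from separate animals, so that p-values measure the spread between these libraries.

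Acetylcholine receptors of adult muscle are gathered under the motor nerve ending. When the nerve is cut or silent, electrical activity of the fibre is lost, myogenin (Myog) and related factors rise, and receptor genes such as Chrna1 and the fetal subunit gene Chrng are switched on along the whole fibre. The adhesion molecule Ncam1, the transcription factor Runx1 and the stress protein gene Gadd45a rise with them in denervated muscle. Ngfr encodes the p75 neurotrophin receptor, which binds all neurotrophins and is known from Schwann cells after nerve injury and from myoblasts. Myogenin and MyoD (Myod1) bind the E-box, a DNA element present in receptor subunit genes.

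To show where such elements lie, the 250 bases before the RefSeq start site (GRCm38.p6) are given for 4 members. Ngfr and Gadd45a had the largest differences between arms, Myog had a daily rhythm in Hu muscle, and Chrna1 is a receptor gene that myogenic factors act on. Capitals mark each E-box (CANNTG). The windows are chr11:95587699-95587948 (minus strand) for Ngfr, chr6:67037408-67037657 (minus strand) for Gadd45a, chr1:134289754-134290003 (plus strand) for Myog and chr2:73580339-73580588 (minus strand) for Chrna1.
Ngfr: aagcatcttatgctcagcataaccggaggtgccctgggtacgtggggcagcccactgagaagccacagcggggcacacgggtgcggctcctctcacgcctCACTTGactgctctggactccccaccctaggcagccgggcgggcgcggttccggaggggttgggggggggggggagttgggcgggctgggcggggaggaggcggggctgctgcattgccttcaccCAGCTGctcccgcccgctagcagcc
Gadd45a: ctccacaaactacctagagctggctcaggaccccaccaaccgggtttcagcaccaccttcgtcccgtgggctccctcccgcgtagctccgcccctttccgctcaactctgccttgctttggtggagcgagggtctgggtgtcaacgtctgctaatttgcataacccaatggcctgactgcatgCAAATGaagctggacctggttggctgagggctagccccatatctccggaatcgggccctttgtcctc
Myog: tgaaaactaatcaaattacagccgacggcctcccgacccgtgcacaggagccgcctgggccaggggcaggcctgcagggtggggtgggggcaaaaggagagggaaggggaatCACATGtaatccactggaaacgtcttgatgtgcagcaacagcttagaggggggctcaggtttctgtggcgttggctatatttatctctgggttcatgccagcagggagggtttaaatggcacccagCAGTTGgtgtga
Chrna1: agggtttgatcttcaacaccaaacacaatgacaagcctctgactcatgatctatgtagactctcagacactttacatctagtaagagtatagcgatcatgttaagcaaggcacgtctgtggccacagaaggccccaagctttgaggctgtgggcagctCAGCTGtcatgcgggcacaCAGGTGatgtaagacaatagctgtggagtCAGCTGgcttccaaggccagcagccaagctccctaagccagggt

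Ngfr held 2 E-boxes in its window, at 150 and 25 bases before the start, and the nearer one was of the form CAGCTG. Chrna1 held 3, of which 2 were CAGCTG, Myog held 2 and Gadd45a held 1, neither of them with CAGCTG. Both strands were searched, and CAGCTG is a case of CANNTG. Of 32851 promoters in the RefSeq table, 66.22% held CANNTG and 13% held CAGCTG in the same 250 bases, so that an E-box alone does not set these genes apart. Chrng, whose window is not printed, held 3 E-boxes, 2 of them CAGCTG. The RUNX motif TGTGGT, found in 14.05% of windows, was not matched in any of these 5. The table held 6 of the 8 members, with 2 windows for Runx1, and Myod1 and Ncam1 were not among them.

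Depth in muscle ranged from 43.1 to 92.1 M counts (M, 1e6) per Hu library and from 50.9 to 79.6 M per Mu library. Levels are CPM, counts per 1e6 after scaling by the trimmed mean of M values (TMM), and differences are time-averaged log2 differences, Hu minus Mu, from edgeR's quasi-likelihood fit with SE. A gene was called at a Benjamini-Hochberg adjusted p under 0.05 over all genes tested. Muscle fibre genes were abundant throughout: the fibre list of Ckm, Acta1, Myh4, Myh1 and Tnnt3 summed to 84691 to 150716 CPM in Hu and 82829 to 130122 CPM in Mu. Of the Hu libraries, ZT 6 replicate 1 and ZT 14 replicate 2 were least like the rest over all genes, with median Spearman correlations of 0.93 and 0.961 to the other Hu libraries. Calls or list counts that fell without these 2 are given beside the result, not always with the gene.

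Ngfr (ENSMUSG00000000120, 11:95568818-95587735, minus strand, GRCm38) was higher in Hu muscle at every time. In Mu libraries it ranged from 0.41 to 3.59 CPM with a median of 1.44, and in Hu libraries from 2.95 to 17.6 CPM with a median of 4.53. The 2 ranges met only at their edges, and 13 of 15 Hu libraries lay above every Mu library. Ngfr thus fell short of a full separation, with every Hu library above every Mu library. That was found for 0.0563% of all genes, and the reverse for 0.0493%. The share of genes as far apart as Ngfr was not computed, and Ngfr was chosen for this difference, so the shares do not measure how rare it is. The mean was 1.59 ± 0.79 CPM (SD, n = 12) in Mu and 5.93 ± 3.62 CPM (SD, n = 15) in Hu, a log2 difference of 1.94 ± 0.25.

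The Hu to Mu ratio of mean Ngfr was lowest at ZT 2, at 1.99, and highest at ZT 14, at 9.04. At ZT 14 the Hu libraries held 6.26 and 17.6 CPM and the Mu libraries 1.29 and 1.36 CPM. No Hu library overlapped a Mu library of the same time at any of the 6 times. The library with 17.6 CPM was ZT 14 replicate 2, one of the 2 named above. Without both of them the log2 difference of Ngfr was 1.65, and leaving out 1 library at a time it stayed between 1.73 and 2.05.

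Gadd45a (ENSMUSG00000036390, 6:67035096-67037457, minus strand), a stress-induced gene that denervation is known to raise in muscle fibres, rose in Hu muscle. Mu libraries ranged from 7.78 to 42.1 CPM with a median of 20.9, and Hu libraries from 13.6 to 75.3 CPM with a median of 48.0. The groups overlapped: 8 of 15 Hu libraries exceeded the highest Mu library, and 14 exceeded the Mu median. Means were 24.5 ± 12.9 CPM (SD, n = 12) in Mu and 45.7 ± 18.1 CPM (SD, n = 15) in Hu. The log2 difference was 1.004 ± 0.245, with an edgeR adjusted p of 0.0046.

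Gadd45a was higher in Hu at all 6 times, by 1.24 times at ZT 6 and 3.69 times at ZT 18. The 2 arms were apart without overlap at ZT 10, 18 and 22. Each time had only 2 or 3 Hu and 2 Mu libraries, and members that were not called also came apart. Chrng and Myog lay above Mu at 2 times and below at 1, and Myod1 and Ncam1 above at 1 and below at 2. Chrna1 and Runx1 lay above at 1 time. The share of all genes apart at single times was not computed. At ZT 18 Mu libraries held 9.19 and 10.3 CPM, and Hu libraries 13.6, 38.2 and 56.4 CPM. At ZT 6 the Mu libraries, at 35.1 and 42.1 CPM, lay within the Hu range of 30.7 to 75.3 CPM. Without the 2 Hu libraries least like the rest the log2 difference was 0.86, with an edgeR adjusted p of 0.0131. A gene on the opposite strand, E230016M11Rik, overlaps Gadd45a. The kit kept strand, but the counting setting is not stated in the sources used here.

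Apart from Ngfr, 1 of 7 members was called, which is 14.3% beside 26.9% of all genes tested in muscle. Upward calls were 13.5% of all genes. The median difference of these 7 was 0.24, against 0.03 over all genes. That median is the value of Chrng, a gene with 0 to 69 counts per library and an SE of 0.51. Its sign changed with the settings, so the median does not show a shift of the set. In a bulk sample, a change in the number of cells of a type and a change in RNA per cell cannot be told apart.

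**Figure D1:**
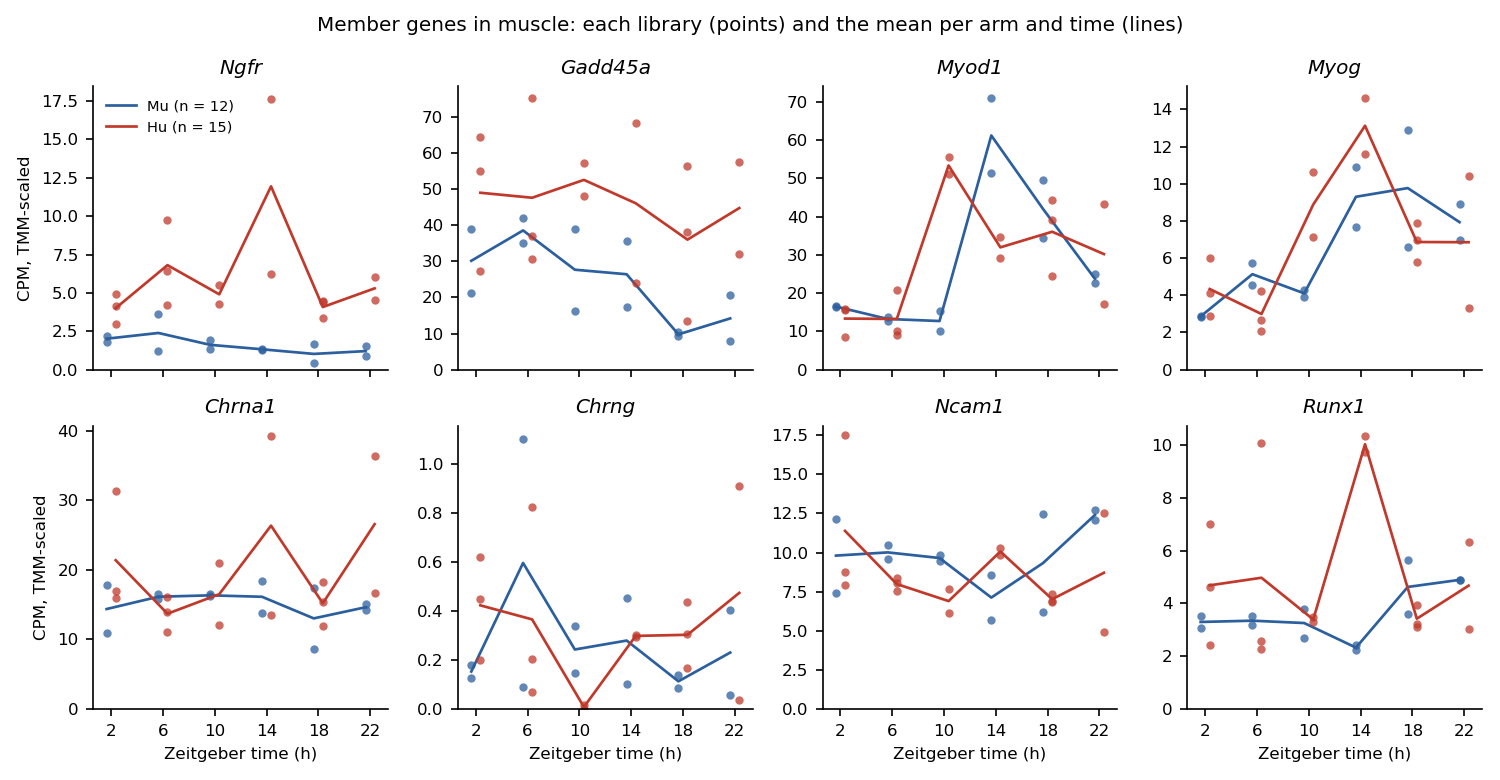
Level of each member gene in muscle (y axis, CPM scaled by TMM, linear from 0) against zeitgeber time (x axis, hours). Points are libraries, lines join the means of 15 Hu (red) and 12 Mu (blue) libraries. Ngfr lies above Mu at all 6 times, Gadd45a at all 6 in the mean, and the means of Myod1 are highest at ZT 10 in Hu (53.4 CPM) and at ZT 14 in Mu (61.2 CPM).

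The member genes for receptor subunits were not called. Chrna1 (ENSMUSG00000027107, 2:73563215-73580338, minus strand), the alpha subunit present in every muscle acetylcholine receptor, ranged from 8.68 to 18.4 CPM in Mu (median 15.98) and from 11.1 to 39.2 CPM in Hu (median 16.1). The medians nearly coincided, and 4 of 15 Hu libraries lay above every Mu library. Among them 3 stood well clear, at 39.2 (ZT 14 replicate 2), 36.4 (ZT 22 replicate 2) and 31.3 CPM (ZT 2 replicate 2). The log2 difference was 0.35 ± 0.19, with an edgeR adjusted p of 0.176, and it was 0.18 without ZT 14 replicate 2.

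Chrng (ENSMUSG00000026253, 1:87204657-87212694, plus strand), the fetal gamma subunit, stayed close to the limit of detection in both arms. Its counts ran from 0 to 69 per library. Levels were 0.057 to 1.10 CPM in Mu (median 0.14) and 0 to 0.91 CPM in Hu (median 0.30), and the ranges lay over each other. The Hu library at 0, ZT 10 replicate 1, allows a level of up to 0.077 CPM (3 counts). The log2 difference was 0.24 ± 0.51, with an edgeR adjusted p of 0.759, and a rise of the fetal subunit was not detected.

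The average levels of the genes for myogenin and MyoD differed by less than the spread of libraries. Myog (ENSMUSG00000026459, 1:134289989-134292548, plus strand) ranged from 2.85 to 12.9 CPM in Mu (median 6.16) and from 2.07 to 14.6 CPM in Hu (median 6.02). Its log2 difference was 0.07 ± 0.21 (edgeR adjusted p = 0.83). Myod1 (ENSMUSG00000009471, 7:46376474-46379099, plus strand) ranged from 10.1 to 71.1 CPM in Mu (median 19.6) and from 8.61 to 55.7 CPM in Hu (median 24.6), with a log2 difference of 0.13 ± 0.23 (edgeR adjusted p = 0.696). In Mu, Myod1 means ran from 12.7 CPM at ZT 10 to 61.2 CPM at ZT 14, so that the time of day separated libraries more than the arm did.

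Ncam1 (ENSMUSG00000039542, 9:49502136-49798925, minus strand), whose protein spreads over the surface of denervated fibres, was not called. Mu libraries held 5.69 to 12.7 CPM (median 9.69), and Hu libraries 4.91 to 17.5 CPM (median 7.92). Most Hu libraries were on the low side: 4 of 15 exceeded the median of Mu, and the highest was ZT 2 replicate 2. The log2 difference was -0.17 ± 0.16, with an edgeR adjusted p of 0.45. Gm11149 lies antisense to Ncam1 and Gm26626 antisense to Runx1.

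Runx1 (ENSMUSG00000022952, 16:92601466-92826149, minus strand), a transcription factor that protects denervated fibres from wasting, was spread widely in Hu muscle. Mu libraries held 2.24 to 5.65 CPM (median 3.52), and Hu libraries 2.26 to 10.3 CPM (median 3.50). The medians were close, while 5 of 15 Hu libraries lay above every Mu library. Both Hu libraries of ZT 14 were among them, at 9.73 and 10.3 CPM, where the Mu libraries held 2.24 and 2.41 CPM. ZT 6 replicate 1 held 10.1 CPM. The log2 difference was 0.50 ± 0.25, with an edgeR adjusted p of 0.134. It was 0.25 without the 2 Hu libraries least like the rest and 0.04 without ZT 14.

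Levels between genes were compared per kilobase of exon. In Hu muscle Gadd45a was highest, at 25.9 ± 10.3 CPM per kb, followed by Myod1 at 15.01 ± 8.53, Myog at 4.47 ± 2.50 and Chrna1 at 4.40 ± 2.04 (SD, n = 15 for each). Ngfr came next, at 1.72 ± 1.05 CPM per kb, then Ncam1 at 1.004 ± 0.35, Runx1 at 0.42 ± 0.24 and Chrng at 0.078 ± 0.068. In Mu muscle (n = 12) Myod1 led, at 15.2 ± 10.4 CPM per kb, with Gadd45a at 13.9 ± 7.31. Ngfr, at 0.46 ± 0.23, ranked below Ncam1, at 1.12 ± 0.28 CPM per kb. Neighbours in this order, such as Myog and Chrna1 or Gadd45a and Myod1 in Mu, lay within one another's spread.

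A 24 h rhythm was seen in the myogenic factors. Myod1, a known target of the circadian clock in muscle, was rhythmic in both arms. In Mu its fitted amplitude (mean to peak) was 1.08 on the log2 scale with a peak at ZT 16.7 (edgeR adjusted p = 0.0195), and in Hu 0.90 with a peak at ZT 14.7 (edgeR adjusted p = 0.0416). Myog passed in Hu, with an amplitude of 0.80 and a peak at ZT 15.1 (edgeR adjusted p = 0.0346). In Mu it had an amplitude of 0.73 and a peak at ZT 16.96, with an edgeR adjusted p of 0.0973. Rhythm calls thus covered 1 of 8 members in Mu, where 5.31% of all genes were called, and 2 of 8 in Hu, where 7.78% were.

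Values by time show where these curves part. At ZT 10 Myod1 stood at 51.1 and 55.7 CPM in Hu but at 10.1 and 15.3 CPM in Mu. At ZT 14 the order turned, with 29.1 and 34.8 CPM in Hu below 51.4 and 71.1 CPM in Mu. Myog at ZT 10 was 7.11 and 10.6 CPM in Hu and 3.92 and 4.27 CPM in Mu. Fitted peaks were 2.02 h (Myod1) and 1.82 h (Myog) earlier in Hu, but the test of a different rhythm gave edgeR adjusted p-values of 0.567 and 0.71. Across the 27 libraries, after the mean of each arm was subtracted, Myod1 and Myog had a Pearson correlation of 0.80, the highest of any pair of members. These libraries share their time points, so the value describes them only.

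The Hu rhythm calls of Myog and Myod1 depended on single libraries, on times and on the fit. With each arm fitted alone neither passed in Hu, at edgeR adjusted p-values of 0.129 (Myog) and 0.15 (Myod1), nor did they without the third replicates, at 0.0812 and 0.139. Leaving out 1 library at a time, Myog stayed past the threshold in 23 of 27 fits and Myod1 in 14 of 27. The 4 whose removal ended the call of Myog were Hu ZT 2 replicates 1 and 3 and both Hu libraries of ZT 14, with edgeR adjusted p-values up to 0.0988. For Myod1 they were Hu ZT 2 replicates 1, 2 and 3, ZT 6 replicates 1 and 2, ZT 18 replicates 2 and 3 and ZT 22 replicate 1, and Mu ZT 6, 14 and 18 replicate 2 and ZT 22 replicates 1 and 2, with edgeR adjusted p-values up to 0.0841. Neither gene passed in Hu without the 2 Hu libraries least like the rest, at edgeR adjusted p-values of 0.147 for Myog and 0.0656 for Myod1. In Mu, Myod1 passed in 26 of 27 such fits, the exception being without Mu ZT 14 replicate 1 (edgeR adjusted p = 0.0528).

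No member had a different rhythm between arms, by edgeR (0 of 8, and 0 at an unadjusted p under 0.05) or by DESeq2 (0 of 8). Over all genes 0.0704% were called by edgeR, and 13.8% had an unadjusted p under 0.05. Gadd45a had an amplitude of 0.87 in Mu (peak at ZT 7.1, edgeR adjusted p = 0.114) and 0.20 in Hu (edgeR adjusted p = 0.798), and the difference of the 2 rhythms had an edgeR adjusted p of 0.494. For Ngfr the amplitudes were 0.58 in Mu and 0.52 in Hu, with edgeR adjusted p-values of 0.303 and 0.268. Chrna1, Chrng, Ncam1 and Runx1 had edgeR adjusted p-values from 0.504 to 0.887 for a rhythm in either arm.

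No gene of the receptor subunit and junction lists was called higher in Hu muscle. Of the 5 receptor subunit genes 0 rose and 1 fell: Chrnd, the delta subunit, averaged 4.06 ± 1.26 CPM in Mu (SD, n = 12) against 2.76 ± 0.76 CPM in Hu (SD, n = 15). All 15 Hu libraries were below the Mu median of Chrnd, and its log2 difference was -0.56 ± 0.17 (edgeR adjusted p = 0.0184). Chrnd stayed called in all 27 fits without 1 library, but not without ZT 6, 10, 18 or 22 (edgeR adjusted p = 0.133, 0.0606, 0.0553 and 0.131). Lower calls made up 13.3% of all genes. Chrne, the adult epsilon subunit that replaces gamma, had a log2 difference of -0.28 ± 0.11 (edgeR adjusted p = 0.0763), and the beta subunit gene Chrnb1 0.18 ± 0.10 (edgeR adjusted p = 0.19).

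Among 11 genes that build the neuromuscular junction, 0 rose and 3 fell, with a median difference of -0.20. Erbb3, a neuregulin receptor, fell by 0.41 ± 0.11 on the log2 scale (edgeR adjusted p = 0.00976), from 8.45 ± 1.51 to 6.32 ± 1.36 CPM. Lrp4, the agrin receptor, fell by 0.40 ± 0.12 (edgeR adjusted p = 0.0146), and Etv5, a transcription factor of synaptic nuclei, by 0.24 ± 0.09 (edgeR adjusted p = 0.0413). Musk, the receptor kinase that organises the synapse, had a difference of 0.26 ± 0.15 (edgeR adjusted p = 0.199). Leaving out 1 library at a time, the call of Etv5 was lost in 16 of 27 fits. These were without Hu ZT 2 replicate 1, ZT 6 replicates 1 and 2, ZT 10 replicate 2, ZT 14 replicate 1, ZT 18 replicate 3 or ZT 22 replicate 1 or 2, and without Mu ZT 2, 6, 10 or 18 replicate 1, ZT 10 or 14 replicate 2, or ZT 22 replicate 1 or 2. Without the 2 Hu libraries least like the rest 2 of the 3 fell, and Etv5 did not pass (edgeR adjusted p = 0.061). Without ZT 6 none of the 3 passed, at edgeR adjusted p-values of 0.0612, 0.136 and 0.0632.

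Within 15 further genes of denervation signalling and response 4 rose, 1 fell and 10 were not called, with a median difference of 0.26. Of all genes tested in muscle 13.5% rose and 13.3% fell, so a share of calls is found without any link to denervation. The list mixes regulators with response genes, and its counts and median do not measure a response. Cdkn1a, a cell cycle inhibitor raised in denervated muscle, had a log2 difference of 1.20 ± 0.30 (edgeR adjusted p = 0.00545). Its Mu libraries held 12.3 to 45.2 CPM (median 22.1), and its Hu libraries 14.1 to 361 CPM (median 34.5). A single Hu library reached 361 CPM, and only 4 of 15 lay above every Mu library. Without ZT 14 replicate 2 the difference of Cdkn1a was 0.70 (edgeR adjusted p = 0.00197).

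Gadd45g, a paralog of Gadd45a, rose by 0.72 ± 0.20 on the log2 scale (edgeR adjusted p = 0.011), from 30.0 ± 15.6 to 43.4 ± 18.95 CPM. Fbxo21, a ubiquitin ligase component of the atrophy programme, rose by 0.41 ± 0.13 (edgeR adjusted p = 0.0219). Trim63 (MuRF1), a muscle ubiquitin ligase named here after its values were seen, rose by 0.80 ± 0.27 (edgeR adjusted p = 0.0309), with Hu libraries around a median of 201 CPM, 5 of 15 of them above every Mu library. Fbxo32, the other well-known atrophy ligase, had a difference of 0.69 ± 0.28 (edgeR adjusted p = 0.0729), and Gadd45b 0.26 ± 0.16 (edgeR adjusted p = 0.235). Without the 2 Hu libraries least like the rest 3 genes of this list rose and 2 fell, and without ZT 14 only Cdkn1a rose, at 0.65 (edgeR adjusted p = 0.0165). Without ZT 14 Gadd45g had 0.63 (edgeR adjusted p = 0.0598) and Fbxo21 0.43 (edgeR adjusted p = 0.0671).

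The gene of this list that fell, Kcnn3, codes for the SK3 potassium channel, a classic marker of denervated fibres. It went from 7.75 ± 1.81 CPM in Mu to 4.23 ± 2.03 CPM in Hu, a log2 difference of -0.88 ± 0.22 (edgeR adjusted p = 0.00604). Of the Hu libraries, 8 of 15 lay below every Mu library. Regulators that carry the loss of nerve activity to the nucleus were not called: Hdac4 had a difference of 0.19 ± 0.09 (edgeR adjusted p = 0.109), Hdac9 0.10 ± 0.17 (edgeR adjusted p = 0.7) and Dach2 -0.17 ± 0.23 (edgeR adjusted p = 0.604).

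In the same list 3 of 15 genes had a rhythm in Hu, where 7.78% of all genes did, and 1 in Mu, where 5.31% did. They are named after their values were seen. Over all genes the Hu rhythm calls fell from 1104 to 135 with each arm fitted alone. How far the rhythms of these genes depend on single libraries or on the fit was not tested. Myf6, another myogenic factor, peaked at ZT 15.5 with an amplitude of 0.63 (edgeR adjusted p = 0.00362), close to Myog and Myod1 in time. Cdkn1a peaked at ZT 16.6 and Gadd45b at ZT 4.8. In Mu, Gadd45g peaked at ZT 10.7 with an amplitude of 1.06 (edgeR adjusted p = 0.0119).

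Developmental sarcomere genes, which return in regenerating or denervated fibres, were mixed. Actc1, cardiac alpha-actin, rose from 68.0 ± 23.6 to 183 ± 170 CPM, a log2 difference of 1.27 ± 0.43 (edgeR adjusted p = 0.0337). Its Hu libraries ran from 6.58 to 669 CPM, with 8 of 15 above and 3 below every Mu library. The call was lost in 9 of 27 fits without 1 library, with the highest edgeR adjusted p, 0.073, without Hu ZT 18 replicate 2. The others were Hu ZT 2 replicate 2 and ZT 10 replicate 1, and Mu ZT 2, 6 or 18 replicate 1 and ZT 10, 14 or 22 replicate 2. Embryonic myosin Myh3 had a difference of -0.78 ± 0.34 (edgeR adjusted p = 0.0925) and neonatal myosin Myh8 0.22 ± 0.12 (edgeR adjusted p = 0.191). The other 4 of the 5 genes were not called.

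Of 8 tested neurotrophin ligands and receptors, 1 rose and 1 fell. Over all genes tested in muscle 13.5% rose and 13.3% fell, so these counts do not set the list apart. Bdnf, a ligand of p75, fell from 1.67 ± 0.77 to 0.91 ± 0.32 CPM (log2 difference -0.87 ± 0.22, edgeR adjusted p = 0.00604). Sort1, the co-receptor of p75 for proneurotrophins, rose from 102 ± 25.03 to 130.4 ± 20.6 CPM (0.36 ± 0.11, edgeR adjusted p = 0.0198). Without ZT 6 neither Bdnf nor Sort1 was called (edgeR adjusted p = 0.0849 and 0.117), and by DESeq2 3 genes of this list rose and 1 fell.

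Of 8 tested p75 partners and adaptors, only Arhgdia, an inhibitor of small GTPases that p75 binds, was called. Over all genes tested in muscle 26.9% were called, 13.5% of them upward calls. Arhgdia rose by 0.21 ± 0.06 on the log2 scale (edgeR adjusted p = 0.0136), and 7 of 15 Hu libraries exceeded the whole Mu range. It was not called without ZT 14 (0.14, edgeR adjusted p = 0.117). Among partners of Runx1, Cbfb, which forms the DNA-binding complex with it, had 0.26 ± 0.11 (edgeR adjusted p = 0.0931) and Runx2 0.60 ± 0.23 (edgeR adjusted p = 0.0541), where 1 of them was called higher without the 2 Hu libraries least like the rest, without ZT 14 or by DESeq2. St8sia4, which adds polysialic acid to NCAM, fell from 9.15 ± 2.24 to 6.68 ± 1.53 CPM (-0.49 ± 0.11, edgeR adjusted p = 0.0028), with 14 of 15 Hu libraries below the Mu median.

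**Figure D2:**
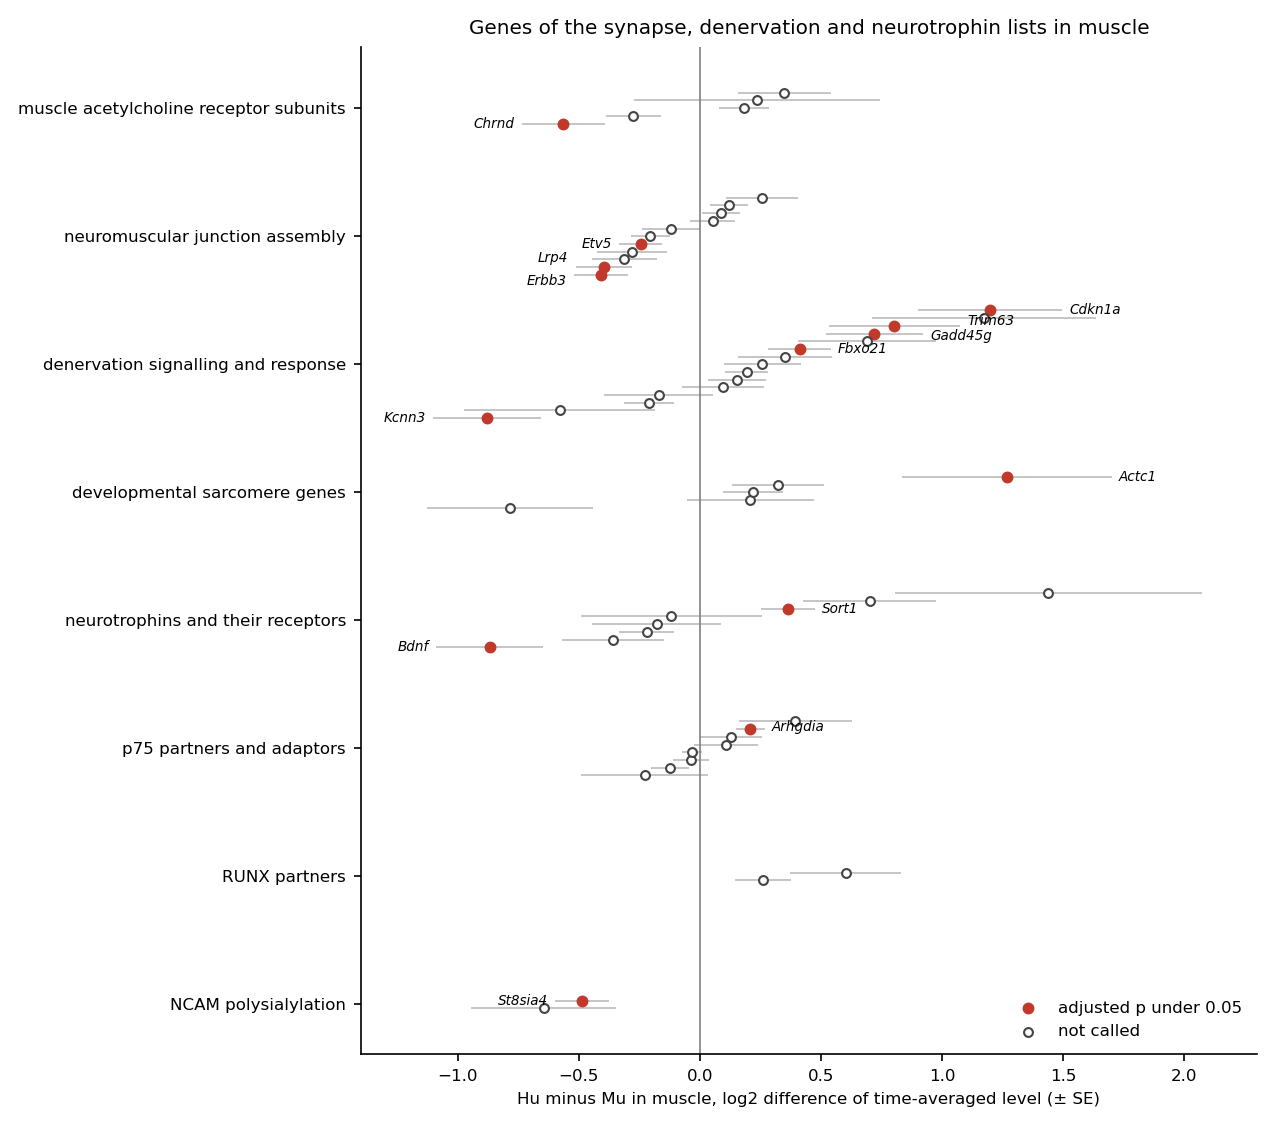
Log2 difference Hu minus Mu in muscle (x axis, ± SE) for each tested gene of 8 lists (rows). Filled red points have an edgeR adjusted p under 0.05 and are named, open points were not called. Kcnn3 at -0.88 and Bdnf at -0.87 lie farthest left of the named points, Actc1 at 1.27 and Cdkn1a at 1.20 farthest right.

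Markers of other cells that carry Ngfr were read beside it. None of the 10 tested Schwann cell genes was called higher in Hu by edgeR, nor by DESeq2. The whole Schwann list summed to 107.5 to 227 CPM in Hu (median 133.4) and 122 to 204 CPM in Mu (median 139). Sox10, the defining Schwann factor, was at 2.68 ± 0.58 CPM in Hu and 2.84 ± 0.62 CPM in Mu. The sums of the 2 arms overlapped over most of their range. The part of Schwann cells in the difference of Ngfr was not tested.

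Of 10 markers of satellite cells, the stem cells of muscle, and of myoblasts, 5 fell in Hu, 1 rose and 4 were not called. Over all genes tested in muscle 13.3% fell and 13.5% rose. Of the 10 markers, 3 to 5 fell when 1 library was left out, and 4 without the 2 Hu libraries least like the rest. The 5 markers that fell included Heyl, by 0.71 ± 0.10 on the log2 scale (edgeR adjusted p = 6.15e-05), and Megf10, by 0.80 ± 0.14 (edgeR adjusted p = 0.00044). The other 3, named after their values were seen, were Pax7, Myf5 and Calcr, and the one that rose was Cdh15. The list summed to 39.8 to 90.3 CPM in Hu (median 44.0, mean 48.3) and 41.2 to 55.0 CPM in Mu (median 48.1, mean 48.1). The highest sum, 90.3 CPM, was that of Hu ZT 6 replicate 1.

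Fat and macrophage markers moved with the arm. Of 7 fat cell genes 5 rose, led by Cfd at 3.04 ± 0.53 (edgeR adjusted p = 0.000376) and Retn at 2.57 ± 0.54 (edgeR adjusted p = 0.0014), and the list summed to 247 to 3004 CPM in Hu (median 991) and 137 to 2334 CPM in Mu (median 315). All 7 macrophage genes rose, led by Cd68 at 1.20 ± 0.24 (edgeR adjusted p = 0.000884) and C1qa at 0.87 ± 0.18 (edgeR adjusted p = 0.00139), and 3 of 7 did without ZT 14. Macrophage sums were 138 to 554 CPM in Hu (median 237) and 73.0 to 229 CPM in Mu (median 129). The part of these cells in the differences of Ngfr and Gadd45a was not tested. Lymphocyte and follicular dendritic cell genes were at or near 0: 0 of 6 passed the filter, Ms4a1 was at 0 in all libraries, and the sum never exceeded 0.22 CPM.

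Some slow fibre, vessel and tendon markers fell in Hu. Of 7 slow fibre genes 2 fell, Myl2 and Tnnt1, at -1.68 ± 0.55 and -1.56 ± 0.55 (edgeR adjusted p = 0.0265 and 0.0399). The call of Myl2 was lost without replicate 1 of Mu ZT 6, 10, 18 or 22 (edgeR adjusted p up to 0.0742). That of Tnnt1 was lost without any of these 4, Mu ZT 22 replicate 2, or Hu ZT 2 replicate 3, ZT 6 replicate 1, ZT 10 replicate 2, ZT 18 replicate 1 or 2, or ZT 22 replicate 1 (up to 0.113). Without the 2 Hu libraries least like the rest 1 of the slow fibre genes fell, since Tnnt1 was not called (edgeR adjusted p = 0.0587), and without ZT 6 neither was. The fast fibre gene Myh4 rose by 0.47 ± 0.13 (edgeR adjusted p = 0.00916) and the creatine kinase gene Ckm by 0.27 ± 0.10 (edgeR adjusted p = 0.0489), which passed in only 9 of 27 fits without 1 library. Among 6 pericyte genes 3 fell, including Pdgfrb and Rgs5, among 5 endothelial genes 3, including Kdr and Cdh5, and among 5 tendon genes 2, Tnmd and Scx. Of 6 fibroblast genes 1 fell, Col1a1 by 1.24 ± 0.33 (edgeR adjusted p = 0.0079). Dpp4 of that list was at 0.41 ± 0.18 (edgeR adjusted p = 0.0877), and the median of the list was 0.09. How far these shifts bear on the members was not tested.

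**Figure D3:**
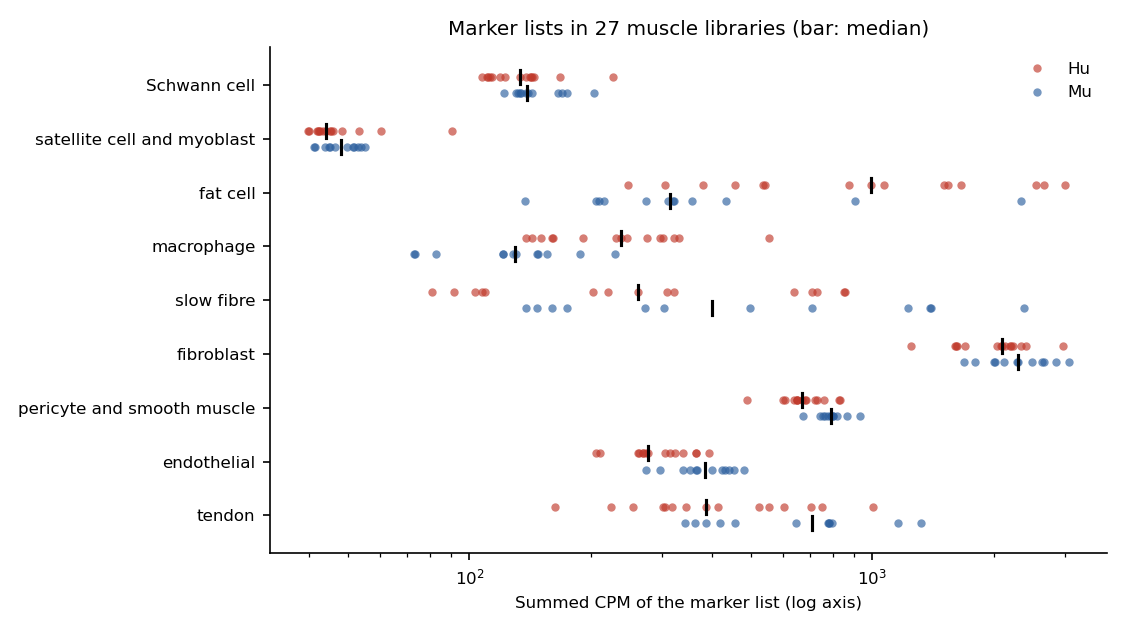
Summed CPM of 9 marker lists (x axis, log scale) in each of the 15 Hu (red) and 12 Mu (blue) muscle libraries, with a black bar at each median. Schwann cell sums overlap (medians 133.4 and 139), while macrophage sums (237 and 129) and fat cell sums (991 and 315) are shifted to higher values in Hu.

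Likeness to Ngfr was measured as the Pearson correlation of log2 CPM over the 27 muscle libraries after the mean of each arm was subtracted, so that the arm difference itself does not count. The 5 genes most like Ngfr were Rpf1 at 0.83, Kat5 at 0.82, Snrpb2 at 0.80, Hook2 at 0.78 and Rnf113a2 at 0.77. Gadd45a, at 0.52, was the member most like it and ranked 569th among the genes tested. The remaining members lay between -0.15 (Myod1) and 0.24 (Runx1). These pooled values hide differences between arms. In Hu libraries alone Runx1 was at 0.62, Gadd45a at 0.48, Chrna1 at 0.31, Myog at 0.28, Ncam1 at 0.06, Myod1 at 0.04 and Chrng at 0.02. In Mu libraries alone, in the same order, the values were -0.47, 0.55, -0.22, -0.57, -0.33, -0.35 and 0.53. Whether the arms differ in this was not tested. Apart from Ngfr, Chrna1 and Ncam1 had a correlation of 0.58 with each other, and Ncam1 and Runx1 one of 0.56. The points share depth and time of day, and these are descriptions.

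The same members were then read in the other tissues, each scaled on its own, so that levels across tissues are approximate. In liver, where only mouse genes were used, 5 of the 8 members had a row and 4 passed the filter. Mouse counts ran from 7.70 to 87.9 M per library in Hu livers and from 97.1 to 118.3 M in Mu livers. There, 3 of the 4 rose in Hu liver by edgeR, beside 79.5% of all liver genes called and 42.5% called higher. Ngfr averaged 5.61 ± 2.33 CPM in Mu against 12.3 ± 8.32 CPM in Hu (log2 difference 1.23 ± 0.26, edgeR adjusted p = 0.000155). Ncam1, at 0.82 ± 0.42 and 3.04 ± 1.99 CPM, rose by 1.96 ± 0.32 (edgeR adjusted p = 7.1e-06).

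Runx1 in liver rose by 2.05 ± 0.25 on the log2 scale (edgeR adjusted p = 1.06e-07), from 1.43 ± 0.40 to 5.99 ± 3.12 CPM, and 13 of 15 Hu libraries exceeded the Mu range, a separation that was complete for 7.52% of liver genes. Gadd45a was not called there, at 11.5 ± 2.99 CPM in Mu and 11.6 ± 4.19 CPM in Hu (-0.04 ± 0.17, edgeR adjusted p = 0.83). Non-hepatocyte markers of the mouse were also higher in Hu liver: 7 of 7 macrophage, 4 of 5 endothelial and 5 of 6 pericyte genes rose. Their part in the liver differences was not tested.

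In the arcuate nucleus (ARC, hypothalamus) and the suprachiasmatic nucleus (SCN, the central clock) no tested member was called, of 5 and 4, and none had an unadjusted p under 0.05 in edgeR. Over all genes 0.00663% were called in ARC and 0% in SCN. The highest Ngfr level was in SCN, at 97.8 ± 34.7 CPM in Mu (33.7 to 146, n = 12) and 104.4 ± 30.9 CPM in Hu (58.3 to 149, n = 10). ARC held 6.28 ± 1.11 CPM in Mu and 5.30 ± 1.10 CPM in Hu. In Mu mice the order of Ngfr was SCN, then ARC and liver, whose ranges overlap, then muscle. Ncam1, abundant in neurons, reached 407 ± 53.9 (Mu) and 408 ± 40.8 CPM (Hu) in ARC, and in SCN 452 ± 44.3 (Mu) and 466.1 ± 32.6 CPM (Hu). Myog, Myod1 and Chrng had at most 7 counts in any brain library.

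The difference between tissues was tested in 1 edgeR fit over all 98 libraries and 16811 genes, which was chosen after the data were seen. For Gadd45a the Hu minus Mu difference in muscle exceeded that in liver by 1.08 ± 0.25 on the log2 scale (edgeR adjusted p = 9.13e-05), that in ARC by 1.04 ± 0.27 (edgeR adjusted p = 0.00897) and that in SCN by 1.02 ± 0.27 (edgeR adjusted p = 0.0112). For Ncam1 and Runx1 the Hu minus Mu difference was smaller in muscle than in liver, at -2.04 ± 0.27 and -1.50 ± 0.30 for muscle minus liver (edgeR adjusted p = 4.8e-10 and 6.93e-06). Of the 16811 genes, 11182 were called against liver, 1124 against ARC and 1135 against SCN. A call against liver was thus found for most genes and does not set these members apart. Ngfr was left out of this test because its muscle difference chose the set, and Chrna1 against liver because it had at most 4 counts in any liver library and did not pass the filter there. Libraries of different tissues may come from the same mouse, which the labels do not resolve and the fit does not model.

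**Figure D4:**
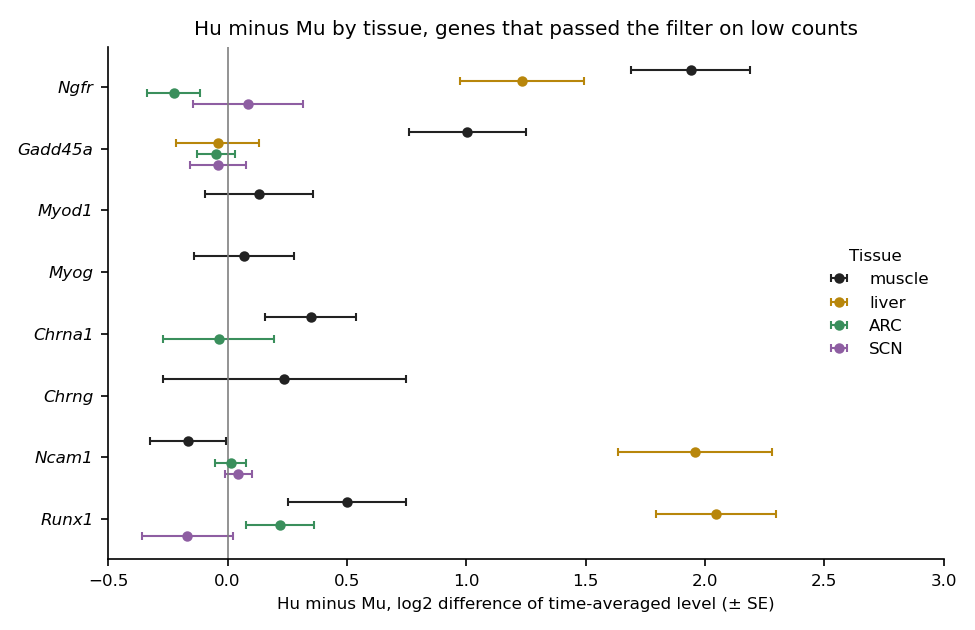
Log2 difference Hu minus Mu (x axis, ± SE) of each member (rows) that passed the filter on low counts in muscle, liver, ARC and SCN (colours). Gadd45a lies near 1.004 in muscle and between -0.05 and -0.04 elsewhere, and Ncam1 and Runx1 lie near 1.96 and 2.05 in liver, to the right of their values in the other tissues.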

How the data were processed

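RNA sequencing counts were analysed for muscle, liver, ARC and SCN of the 2 arms. The authors deposited raw counts per gene. STAR and the builds GRCm38, mm10, GRCh38, hg38 and hg19 are named in the submitters' processing notes, and the counting tool and annotation are not given in the sources used here. Libraries were made with a directional kit, per the labels' protocols. Of 20415 mouse rows in the muscle counts, 20329 were found in the gene name reference, and no row was dropped for lacking a name. Liver used mouse rows only.

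Groups came from the labels. For each tissue edgeR 4.0.16 (R 4.3.3) was fitted by quasi-likelihood after filterByExpr by arm and TMM scaling, with an arm term and a cosine and sine of 24 h in each arm, and Benjamini-Hochberg adjustment over all genes tested at 0.05. The log2 CPM used a prior count of 2. DESeq2 1.42.0, other scalings, filters, time models, replicate blocks and left-out libraries or times were tried in muscle. The fit was tested on simulated data. Named were all members, the called genes of each pathway list (at most the 4 of smallest p), the 2 smallest p of each marker list and the 5 genes most like Ngfr. Other genes were named after their values were seen. The members and lists were chosen with earlier results of these data known. Depth was 43.1 to 92.1 M (1e6) counts per muscle library. Floors of 3 counts cover counting error only. Some genes of the lists are not reported here.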

Additional observations from a re-analysis of the deposited data

Results flagged for a closer look

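In a single edgeR fit over 98 libraries, chosen after the data were seen, the Hu minus Mu difference varied between tissues for 3 of the members read. Ngfr and genes below the filter in the other tissue (Chrna1 in liver and SCN) were left out. Gadd45a, the stress-induced gene, had a larger log2 difference in muscle than in liver (by 1.08, edgeR adjusted p = 9.13e-05), ARC (by 1.04, edgeR adjusted p = 0.00897) and SCN (by 1.02, edgeR adjusted p = 0.0112). For Ncam1 the muscle difference minus the liver difference was -2.04 (edgeR adjusted p = 4.8e-10), and for Runx1 it was -1.50 (edgeR adjusted p = 6.93e-06). Over all 16811 genes the Hu minus Mu difference in muscle departed from that in liver for 11182, in ARC for 1124 and in SCN for 1135.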

How the results depend on the processing

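Gadd45a was called higher in Hu muscle in all 27 fits without 1 library (log2 difference 0.91 to 1.15) and under all 15 other settings (0.86 to 1.21), and the other 6 tested members were called in none of them. Called genes in muscle, 3817, were 3071 to 4411 without 1 library, 2055 without ZT 6 and 1581 without ZT 22. Differences near 0 changed sign. Chrng was -0.18 with ZT as a factor, -0.039 without replicate 3 and -0.081 to 0.63 without 1 library (the lowest without Hu ZT 6 replicate 3). Myog was -0.16 without ZT 2, -0.11 without ZT 10 and -0.038 to 0.16 without 1 library (the lowest without Hu ZT 22 replicate 2). Myod1 was -0.32 without ZT 10 and -0.071 without ZT 22. Without 1 library the difference ranged from -0.20 to 0.092 for Chrna1 in ARC, -0.023 to 0.038 for Ncam1 in ARC, -0.10 to 0.0017 for Gadd45a in SCN, -0.011 to 0.17 for Ngfr in SCN and -0.12 to 0.023 for Gadd45a in liver.

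Rhythm calls depended more on the settings. In Hu, 1104 genes became 440 with ZT as a factor, 399, 395, 435, 675 and 299 without ZT 2, 6, 14, 18 and 22, 725 without the 2 Hu libraries least like the rest, 135 with each arm fitted alone and 1708 by DESeq2. In Mu, 754 became 165 with ZT as a factor, 346, 296, 307, 218 and 248 without ZT 2, 10, 14, 18 and 22, 1527 without those 2 libraries, 1749 alone and 1494 by DESeq2. Different rhythms, 10, became 1 with ZT as a factor, 6 without replicate 3, 1, 0, 0, 0, 0 and 2 without ZT 2, 6, 10, 14, 18 and 22, 17 without the 2 libraries and 158 by DESeq2. Without 1 library these counts ranged from 602 to 1138, 388 to 1110 and 0 to 19. Members with a rhythm in Hu, 2, became 0 without replicate 3, ZT 2, ZT 6 or the 2 libraries and with the arm alone, and 1 without ZT 14 or ZT 18. In Mu, 1 became 0 without ZT 2, 14 or 18, 2 without ZT 6 or with the arm alone, and 3 by DESeq2. Without 1 library they were 0 to 2 and 0 to 1. The cause was not tested.

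Called genes without 1 library were 1 to 2 in ARC, 0 to 1 in SCN and 11692 to 11922 in liver. Same-numbered libraries of the 2 arms showed little shared deviation in most of 12 pairs (mean correlation 0.025, from -0.145 to 0.462, 2 over 0.1). At ZT 10, 14 and 22 both pairs hold the same value by construction, so the 12 are not independent. This check cannot settle whether the numbers pair the samples. With the replicate number as a block 3565 muscle genes were called, Gadd45a was at 1.17 (edgeR adjusted p = 0.0011), 0 members had a rhythm in Hu (edgeR adjusted p = 0.0556 for Myog and 0.0588 for Myod1), Gadd45a in liver was 0.053 and Ncam1 in ARC -0.019. With the pair as a block 2785 genes were called, Gadd45a was at 1.21, Chrnd was not called (edgeR adjusted p = 0.0658), Chrng was at -0.019 and 0 genes had a different rhythm. Chrng had 0 to 69 counts per library, and how far counting error adds to its spread was not tested.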
